A study of Homo sapiens with 9 samples.

Results

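The 3 exon arrays of cells that carried a short hairpin RNA against CPSF3 were set against the 3 arrays of cells that carried a hairpin against RBFOX2, so 6 of the 9 arrays of the study entered the comparison. The cells were Flip-In-293, an established line derived from human embryonic kidney HEK293 cells. All groups were infected with a lentivirus that expressed the hairpin, and RNA was taken after 10 days; the remaining 3 arrays came from cells with a non-silencing (NS) hairpin, called control below, and were used for description only. All 354600 probe sets with exactly 1 gene symbol were used, of 1384231 on the array. A gene's level was the median over its probe sets, on the deposited log2 signal scale, and 18589 of 19426 genes had the 3 probe sets required. A difference always means CPSF3 hairpin minus RBFOX2 hairpin, given in log2 units with its standard error (SE) over 3 arrays per group. The comparison sets a hairpin against an RNA 3' end factor beside one against a splicing regulator in the same cells.

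CPSF3 is the endonuclease of the cleavage and polyadenylation complex, which cuts the pre-mRNA so that a poly(A) tail can be added. The same enzyme cuts replication-dependent histone transcripts, which have no poly(A) tail. RBFOX2 binds short GCAUG elements in introns and, depending on where it binds, promotes the inclusion or the skipping of the neighbouring exon. RBFOX proteins act in brain, muscle and embryonic cells, and one of their targets is PTBP2, a neuronal splicing repressor that is held low in most other cells.

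The sample titles name the replicates biological and the series design text names them technical. The p-values therefore reflect only how far these arrays spread, and that spread may be technical. The number of arrays limits the precision. Median probe set signal was 6.97 to 7.0 on the 6 arrays. Over all probe sets, Pearson's r was 0.974 to 0.985 among the CPSF3 hairpin arrays and 0.965 to 0.977 among the RBFOX2 hairpin arrays, a description over probe sets that share the same probes. RBFOX2 hairpin replicate 3 lay nearest to the CPSF3 hairpin group. It correlated at 0.987 with CPSF3 hairpin replicate 3 and at 0.982 with CPSF3 hairpin replicate 2. Its values with its own group were lower (0.965 and 0.977). RBFOX2 hairpin replicate 1 also correlated more with CPSF3 hairpin replicate 2 (0.972) than with its own group (0.97 and 0.965). RBFOX2 hairpin replicate 2 reached 0.977 both in its own group and with CPSF3 hairpin replicates 2 and 3. The RBFOX2 level of RBFOX2 hairpin replicate 3 was nevertheless the lowest of all arrays, and results are given with and without that array. The HEK293 markers lay above the median probe set for 8 of 8 measured genes. So did 7 of 11 fibroblast, 3 of 6 blood, 5 of 8 endothelial and 7 of 8 keratinocyte and simple epithelium genes. The median gene level was itself 8.27 to 8.34 on the 6 arrays, so this cut separates little. The mean level of the HEK293 markers was 9.50 to 9.58 on the CPSF3 hairpin arrays and 9.66 to 9.74 on the RBFOX2 hairpin arrays. Marker means of other cell types lay at 6.81 to 6.88 against 6.84 to 7.02 for 11 fibroblast genes, 6.19 to 6.36 against 6.33 to 6.39 for 6 blood genes, and 6.70 to 6.82 against 6.80 to 6.89 for 8 endothelial genes. The 8 keratinocyte and simple epithelium genes, some of which HEK293 cells also express, were at 8.52 to 8.71 against 8.61 to 8.72.

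**Figure D1:**
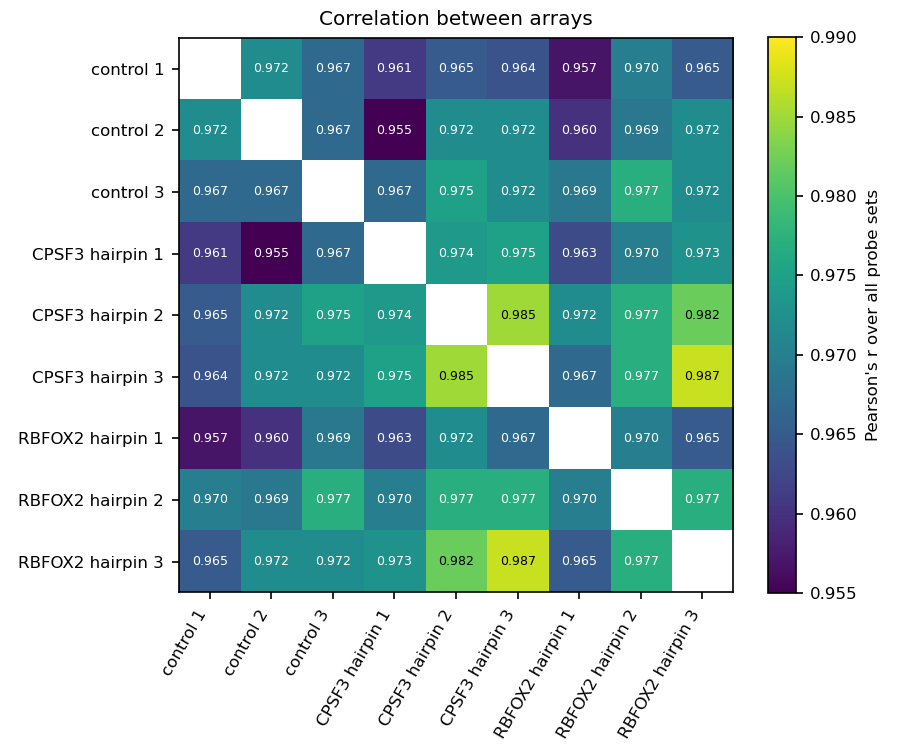
Pearson's r between each pair of arrays over all probe sets; colour and printed value show r, and the diagonal is blank. RBFOX2 hairpin replicate 3 has its highest value, 0.987, with CPSF3 hairpin replicate 3.

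Each hairpin's target was lower in its own group, but neither difference passed the test over all genes. CPSF3 was at 9.53, 9.26 and 9.04 on the CPSF3 hairpin arrays and at 9.73, 9.44 and 9.77 on the RBFOX2 hairpin arrays. These groups overlapped, and the control arrays, at 9.33, 9.17 and 9.76, spanned nearly the same range. The CPSF3 difference was -0.37 ± 0.15 (adjusted p = 0.349, limma, and exact 2-sided permutation p = 0.2). Of its 22 probe sets, 20 were lower. An unadjusted p under 0.05 was reached by 2 of them, against 8.2% of all single probe sets. The name CPSF3 hairpin therefore follows the sample label and not a measured loss of the transcript.

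RBFOX2 was at 9.17, 8.91 and 8.85 on the CPSF3 hairpin arrays and at 8.63, 8.63 and 8.57 on the RBFOX2 hairpin arrays, with the control arrays at 9.26, 9.13 and 9.17. Every RBFOX2 hairpin array lay below every other array. The difference was 0.37 ± 0.13, or 1.29-fold (adjusted p = 0.275, limma). The exact permutation p was 0.1, the smallest that 3 arrays against 3 allow. Of the 26 RBFOX2 probe sets, 23 were higher with the CPSF3 hairpin. An unadjusted p under 0.05 was reached by 9 of them, against 8.2% of all single probe sets. Without RBFOX2 hairpin replicate 3 the differences were -0.31 ± 0.17 for CPSF3 and 0.35 ± 0.15 for RBFOX2, with adjusted p of 0.392 and 0.261.

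Across the transcriptome 19 genes differed, 3 higher and 16 lower with the CPSF3 hairpin. CGA, the alpha chain shared by the glycoprotein hormones, the splicing repressor PTBP2 and NKIRAS2, an inhibitor of NF-kappaB activation, were the 3 higher genes, at 2.15-fold to 2.97-fold. Among the 16 lower genes, 6 differed by at least 2-fold: EDIL3, TSPAN2, MMP2, LYPLA1, DPP4 and PRSS35. The others were ALDH1L2, SLC7A3, TNMD, CRABP1, CLDN1, CHRDL1, DDIT4, FNDC1, CLU and NME4. In bulk RNA such as this, fewer cells of a kind and less RNA per cell cannot be told apart.

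The 19 calls were 0.102% of the genes tested (limma with Benjamini-Hochberg adjustment at 0.05), 0.0161% higher and 0.0861% lower. At an unadjusted p under 0.05, 2389 genes differed, 7.43% higher and 5.42% lower. The median difference over all genes was -2e-04 and the SD of the differences was 0.214. All 19 had groups without overlap, against 9.79% of all genes in the higher and 8.73% in the lower direction. This separation comes from the same array values as the calls, so it adds no support to them. The total depended on single arrays, and changed least without RBFOX2 hairpin replicate 3. It was 1, 0 and 0 without CPSF3 hairpin replicates 1, 2 and 3, and 9, 1 and 17 without RBFOX2 hairpin replicates 1, 2 and 3. The split by direction did change without RBFOX2 hairpin replicate 3, to 7 higher and 10 lower. Of these 17 calls, 11 were among the 19. The other 8 of the 19 then had adjusted p from 0.0506 to 0.0671 (limma).

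**Figure D2:**
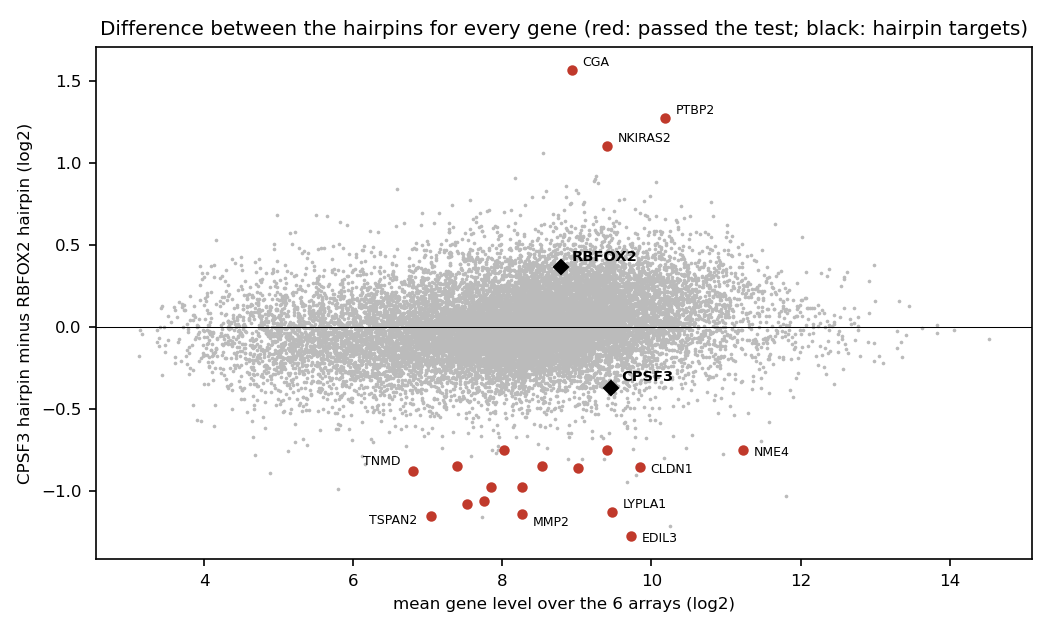
Difference between the hairpins (vertical axis, log2) against the mean gene level over the 6 arrays (horizontal axis, log2) for 18589 genes; red points passed the test, and 10 of them are labelled. CPSF3 (-0.37) and RBFOX2 (0.37), drawn as black diamonds, lie within the cloud of other genes.

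CGA showed the highest difference of all genes. It was at 9.40, 9.96 and 9.80 on the CPSF3 hairpin arrays and at 8.07, 8.38 and 8.01 on the RBFOX2 hairpin arrays, a difference of 1.57 ± 0.16 (adjusted p = 0.0132, limma). The groups were clearly separate, and the control arrays, at 10.31, 9.91 and 9.69, overlapped the CPSF3 hairpin arrays. The gap thus lay between the RBFOX2 hairpin arrays and all others. Of the 6 CGA probe sets, 5 were higher, with differences from -0.42 to 1.72 and a median of 1.32. The gene passed the test under 14 of 17 settings, the highest number among the 19, and was at 1.03 with the mean over probe sets (adjusted p = 0.00432).

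The CGA promoter is known for a pair of cAMP response elements, the sites through which CREB-family factors act on it, and it is shown because CGA differed most. The stretch below is the 250 bases before the RefSeq start of the gene (GRCh38.p14, chr6:87095107-87095356, minus strand), written 5′ to 3′ with each palindromic TGACGTCA in capitals.
CGA: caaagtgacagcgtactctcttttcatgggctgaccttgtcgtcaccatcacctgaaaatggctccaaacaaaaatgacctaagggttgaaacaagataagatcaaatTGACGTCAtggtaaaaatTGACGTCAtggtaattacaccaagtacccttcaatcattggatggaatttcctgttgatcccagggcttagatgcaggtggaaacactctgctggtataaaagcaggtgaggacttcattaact
The 2 matches begin 142 and 124 bases before the start. TGACGTCA, searched on both strands, occurs in 1.65% of 35116 RefSeq promoter windows of this length, and in 1 of the 14 genes that passed the test and have such a window (CGA itself). The E-box CACGTG occurs in 6.34% of windows and in 1 of the 14 (DPP4), and the composite element TGATGNAA in 3.14% and in 0 of the 14. TATAAA occurs in 10.7% of windows and in 2 of the 14 (CGA and TNMD). These matches describe letters in the windows and not bound sites.

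PTBP2, named above as a known RBFOX target, was also higher with the CPSF3 hairpin. It was at 11.03, 10.44 and 11 on the CPSF3 hairpin arrays and at 9.33, 9.41 and 9.90 on the RBFOX2 hairpin arrays. The control arrays, at 10.02, 9.87 and 9.55, lay within or just above the RBFOX2 hairpin range, so here the CPSF3 hairpin arrays stood apart. The difference was 1.28 ± 0.19, or 2.43-fold (adjusted p = 0.0419, limma). All 19 PTBP2 probe sets were higher, from 0.17 to 1.53 with a median of 1.24.

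NKIRAS2 was at 10.21, 9.77 and 9.89 on the CPSF3 hairpin arrays and at 8.94, 8.73 and 8.90 on the RBFOX2 hairpin arrays, with the control arrays at 9.91, 9.67 and 10.01. As for CGA, the RBFOX2 hairpin arrays were lower than both other groups. The difference was 1.10 ± 0.14, or 2.15-fold (adjusted p = 0.0211, limma), and 13 of 15 probe sets were higher.

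Of the genes that were lower with the CPSF3 hairpin, EDIL3 differed most. EDIL3, a secreted integrin-binding matrix protein, was at 9.29, 8.89 and 9.08 on the CPSF3 hairpin arrays and at 10.07, 10.59 and 10.43 on the RBFOX2 hairpin arrays. MMP2, a gelatinase that degrades basement membrane collagen, was at 7.69, 7.75 and 7.65 against 8.76, 9.10 and 8.64. For both genes the control arrays overlapped the RBFOX2 hairpin arrays, at 10.35, 10.20 and 10.26 for EDIL3 and at 8.76, 8.77 and 8.98 for MMP2. The difference was -1.27 ± 0.16 for EDIL3 (adjusted p = 0.0199) and -1.14 ± 0.14 for MMP2 (adjusted p = 0.0177). All 16 EDIL3 and all 22 MMP2 probe sets were lower.

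The secreted chaperone CLU was at 9.13, 8.99 and 8.98 on the CPSF3 hairpin arrays and at 9.75, 9.87 and 9.73 on the RBFOX2 hairpin arrays, with 26 of 29 probe sets lower. FNDC1, a protein with fibronectin type III domains, was at 7.61, 7.77 and 7.57 against 8.45, 8.38 and 8.37, with 44 of 46 probe sets lower. CHRDL1, a secreted antagonist of bone morphogenetic proteins, was at 6.96, 6.92 and 7.04 against 7.70, 8.02 and 7.75. The RBFOX2 hairpin arrays were the higher group for all 3 genes, without overlap. The CHRDL1 control arrays, at 8.55, 8.25 and 8.38, lay above both hairpin groups, while the FNDC1 control arrays (8.0, 7.85 and 8.24) lay between them. The differences were -0.75 ± 0.12 for CLU and for FNDC1 and -0.85 ± 0.13 for CHRDL1, with adjusted p of 0.0464, 0.0464 and 0.0409. With probe sets above the upper quartile alone, CHRDL1 was at -0.19 and no longer passed the test (adjusted p = 0.465), and FNDC1 was at -0.49 (adjusted p = 0.0481). PRSS35, a member of the secreted serine protease family, was at 7.23, 7.36 and 7.08 against 8.23, 8.41 and 8.21, a difference of -1.06 ± 0.13 (adjusted p = 0.0177). PRSS35 still passed, but was at -0.70, with brighter probe sets (adjusted p = 0.0172) and at -0.54 with the mean over probe sets (adjusted p = 0.0156).

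DPP4, the dipeptidyl peptidase that inactivates incretin hormones, was at 7.17, 7.06 and 6.73 on the CPSF3 hairpin arrays and at 8.05, 8.27 and 7.89 on the RBFOX2 hairpin arrays. Its difference was -1.08 ± 0.15 (adjusted p = 0.0322), with 31 of 32 probe sets lower, and its control arrays (7.60, 7.50 and 8.09) reached into the RBFOX2 hairpin range. The groups did not overlap.

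CLDN1, a tight junction claudin, was at 9.33, 9.54 and 9.40 on the CPSF3 hairpin arrays against 10.24, 10.31 and 10.28, and all 11 probe sets were lower. SLC7A3, a transporter of cationic amino acids, was at 7.62, 7.93 and 7.76 against 8.70, 8.99 and 8.54. The tetraspanin TSPAN2 was at 6.61, 6.46 and 6.33 against 7.63, 7.81 and 7.42. Each of these genes had its 3 CPSF3 hairpin arrays below all RBFOX2 hairpin arrays and control arrays that overlapped the latter. Their differences were -0.86 ± 0.12, -0.97 ± 0.15 and -1.15 ± 0.14, with adjusted p of 0.0319, 0.0419 and 0.0177. TSPAN2 lay below the median probe set signal on the CPSF3 hairpin arrays, and with probe sets above the upper quartile alone it was at -0.18 (adjusted p = 0.439). With brighter probe sets it was at -0.72 and with the mean over probe sets at -0.74, and it passed both times (adjusted p = 0.0121 and 0.00465).

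TNMD, a membrane protein typical of tendon, was dim. It was at 6.34, 6.48 and 6.28 on the CPSF3 hairpin arrays, at 7.11, 7.40 and 7.22 on the RBFOX2 hairpin arrays and at 6.86, 6.29 and 6.54 on the control arrays. The RBFOX2 hairpin arrays were the high ones here, above both other groups, and the difference was -0.88 ± 0.13 (adjusted p = 0.0328). Of its 12 probe sets, 10 were lower and 6 lay above the median probe set signal of 6.97.

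LYPLA1, a thioesterase that removes palmitate from proteins, was at 9.01, 8.79 and 8.92 on the CPSF3 hairpin arrays and at 10.00, 9.96 and 10.16 on the RBFOX2 hairpin arrays. The control arrays, at 9.69, 9.87 and 9.89, lay between the groups. The difference was -1.13 ± 0.12 (adjusted p = 0.0132), and all 16 probe sets were lower within a narrow span, from -1.61 to -0.94. LYPLA1 has processed pseudogenes, and probe sets that also match these copies could not be separated.

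ALDH1L2, a mitochondrial enzyme of folate metabolism, was at 7.48, 7.34 and 7.23 on the CPSF3 hairpin arrays against 8.29, 8.55 and 8.15. NME4, a mitochondrial nucleoside diphosphate kinase, was at 10.79, 10.85 and 10.92 against 11.63, 11.50 and 11.67. CRABP1, which binds retinoic acid in the cytoplasm, was at 8.56, 8.58 and 8.62 against 9.45, 9.32 and 9.57. The groups stood apart for each of them, and CRABP1 had the tightest CPSF3 hairpin arrays of these 3. The differences were -0.98 ± 0.14, -0.75 ± 0.12 and -0.86 ± 0.12, with adjusted p of 0.0322, 0.0464 and 0.0322.

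DDIT4, a stress-induced inhibitor of mTORC1, was at 8.0, 8.24 and 8.06 on the CPSF3 hairpin arrays, at 8.87, 9.04 and 8.94 on the RBFOX2 hairpin arrays and at 9.91, 9.79 and 9.79 on the control arrays. Both hairpin groups lay below control, the CPSF3 hairpin group further, and the difference between them was -0.85 ± 0.12 (adjusted p = 0.0328). Over the 19 genes, the control arrays overlapped the RBFOX2 hairpin arrays for 11, overlapped the CPSF3 hairpin arrays for 3 (CGA, NKIRAS2 and TNMD), lay between the groups for 3 (LYPLA1, CRABP1 and FNDC1) and lay above both for 2 (CHRDL1 and DDIT4). This placement is a description, since the control arrays did not enter the fit.

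**Figure D3:**
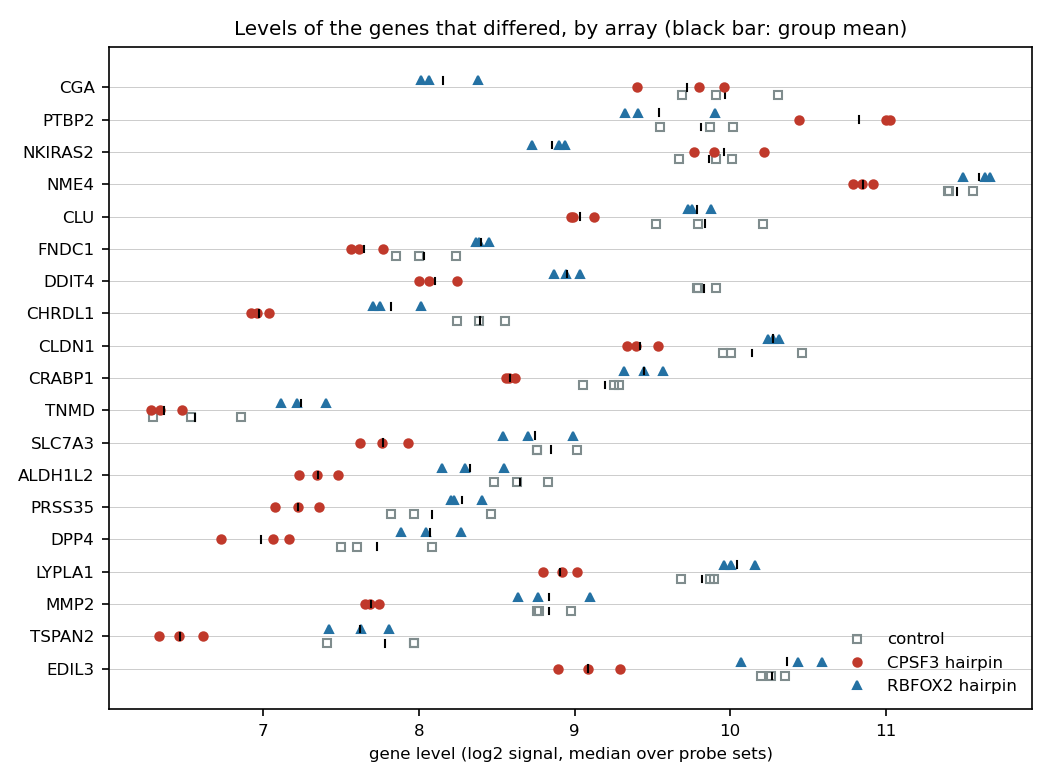
Gene level on every array (horizontal axis, log2 signal) for the 19 genes that passed the test; red circles are CPSF3 hairpin arrays, blue triangles RBFOX2 hairpin arrays, open squares control arrays, and black bars group means. The red and blue points do not overlap in any row, with CGA, PTBP2 and NKIRAS2 higher in red.

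**Figure D4:**
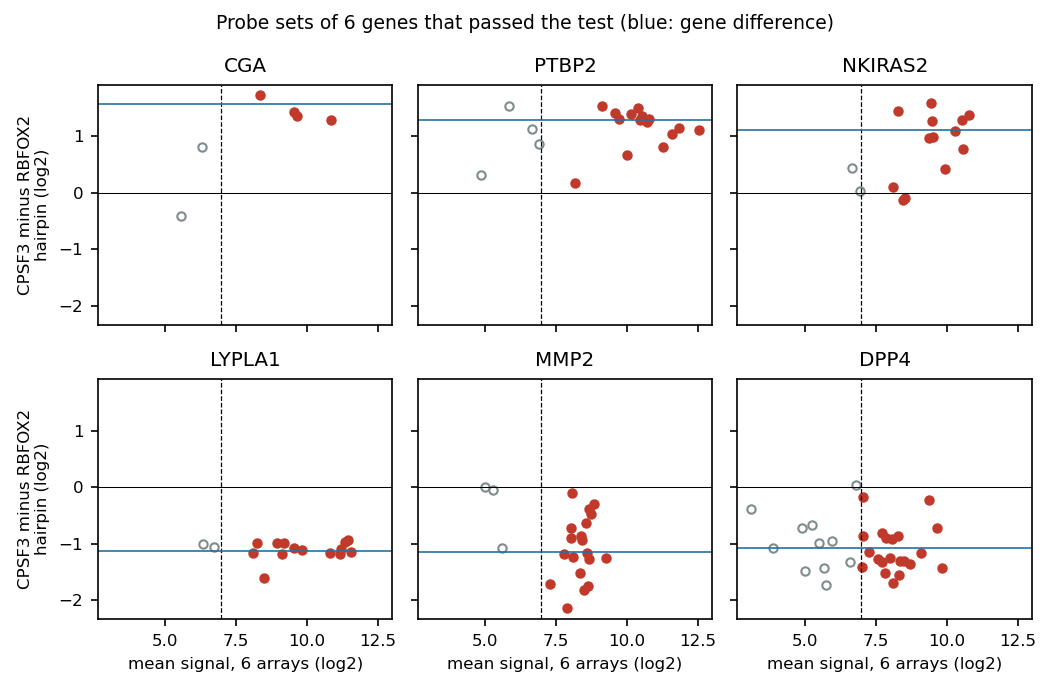
Difference of each probe set (vertical axis, log2) against its mean signal over the 6 arrays (horizontal axis, log2) for 6 of the genes; the blue line is the gene's difference, the dashed line the median probe set signal of 6.97, and open symbols are dimmer probe sets. All 19 PTBP2 and all 16 LYPLA1 probe sets lie on one side of 0, while 1 of 6 CGA probe sets is on the other side.

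When each gene was summarised from its brighter probe sets alone (mean signal at or above 6.97), the comparison called 150 of 16754 genes, 65 higher (0.388%) and 85 lower (0.507%), and all 19 genes above were among them. This count also moved with single arrays: it was 25, 58 and 56 without CPSF3 hairpin replicates 1, 2 and 3, and 128, 19 and 496 without RBFOX2 hairpin replicates 1, 2 and 3, of which the last had 348 higher and 148 lower. STC1, the hormone stanniocalcin, had the lowest difference in that fit, at -1.37 ± 0.18 (adjusted p = 0.00306, limma). Over all its probe sets STC1 was at 6.93, 7.23 and 7.29 on the CPSF3 hairpin arrays and at 7.87, 8.82 and 8.23 on the RBFOX2 hairpin arrays, with an adjusted p of 0.0808. TTPAL, a relative of the tocopherol transfer protein, moved with the summary, from 0.59 ± 0.13 over all 13 probe sets (adjusted p = 0.121) to 1.17 ± 0.14 over 9 (adjusted p = 0.00116). It was at 8.67, 8.34 and 8.34 against 7.81, 7.85 and 7.92, so its groups did not overlap under the main summary.

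Other genes called from brighter probe sets, chosen for mention after their values were seen, included the ribosome biogenesis factors UTP15 (0.92 ± 0.15), UTP20 (0.90 ± 0.15) and HEATR1 (0.71 ± 0.14) among the higher. HIF1A, the oxygen-regulated transcription factor subunit, was higher at 0.88 ± 0.16 (adjusted p = 0.0174), while over all probe sets it was at 0.76 ± 0.18 (adjusted p = 0.141). On the lower side were TIMP3, an inhibitor of matrix metalloproteinases (-0.69 ± 0.13), the insulin-like growth factor binding proteins IGFBP5 (-0.73 ± 0.11) and IGFBP7 (-0.66 ± 0.11), and the retinoic acid-binding protein CRABP2 (-0.68 ± 0.12), a relative of CRABP1.

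The factors of mRNA 3' end processing, the machinery to which CPSF3 belongs, had mostly positive differences, and none passed the adjusted test (limma). Of 21 measured members 18 were above zero, with a median of 0.19 against -2e-04 over all genes. At an unadjusted p under 0.05, 7 (33.3%) were higher, against 7.43% of all genes, and CPSF3 alone was lower. Among the 7 were PCF11 (0.50), XRN2 (0.46) and CPSF2 (0.45). PCF11, a subunit of cleavage factor II, was at 9.49, 9.31 and 9.48 on the CPSF3 hairpin arrays and at 8.81, 8.79 and 9.18 on the RBFOX2 hairpin arrays (adjusted p = 0.202). Its control arrays, at 7.24, 7.02 and 8.71, were lower than both hairpin groups. The 15 Integrator subunits, which include paralogues of the CPSF endonuclease and process small nuclear RNAs, had a median of 0.21, with 13 positive and 4 (26.7%) higher at an unadjusted p under 0.05. INTS6 was at 8.65, 8.36 and 8.47 against 7.63, 7.69 and 8.25 (adjusted p = 0.184). The separation was least against RBFOX2 hairpin replicate 3.

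Of the 9 factors that process histone pre-mRNA, all had a positive difference, with a median of 0.16. At an unadjusted p under 0.05, 4 (44.4%) were higher, against 7.43% of all genes. Among these 4 was the cap-binding subunit NCBP1 (0.49 ± 0.14, adjusted p = 0.204, limma). The replication-dependent histone genes themselves, whose transcripts CPSF3 cuts, had a median of -0.00 over the 11 of 24 that were measured. None of these had an unadjusted p under 0.05 in either direction. The smallest p among them was that of H1-5, at -0.32 ± 0.19 (adjusted p = 0.53) over 3 probe sets.

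No core spliceosome, SR or hnRNP gene passed the adjusted test (limma). Of 47 core spliceosome genes, 40 had a positive difference, with a median of 0.21, and 16 (34.0%) were higher and 0 lower at an unadjusted p under 0.05. SNRPD1, a core Sm protein, was at 9.74, 9.23 and 9.26 against 9.05, 8.71 and 8.85 (adjusted p = 0.228). The 15 SR proteins and TRA2 genes had a median of 0.22 and the 23 hnRNP genes one of 0.17, with 13 and 19 positive. At an unadjusted p under 0.05, 2 (13.3%) and 5 (21.7%) were higher, against 7.43% of all genes. SRSF6, an SR protein that promotes exon inclusion, was at 10.53, 10.31 and 10.53 against 9.93, 9.79 and 10.11 (adjusted p = 0.162). HNRNPM was at 10.27, 10.27 and 10.06 against 9.68, 9.30 and 9.80 (adjusted p = 0.15). For both, the groups did not overlap.

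Among 31 tissue-type splicing regulators, the class of RBFOX2 itself, the median was 0.06. At an unadjusted p under 0.05, 6 (19.4%) were higher and 3 (9.68%) lower, against 7.43% and 5.42% of all genes. PTBP2 was the called member, and the muscleblind gene MBNL1 (0.68) had the next highest difference among the 6. The 33 genes with known RBFOX-regulated exons, a list from general knowledge, had a median of 0.03. At the same threshold 4 (12.1%) were higher and 4 (12.1%) lower.

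No RNA decay factor passed the adjusted test. All 14 measured factors of nonsense-mediated decay were positive, with a median of 0.22. At an unadjusted p under 0.05, 5 (35.7%) were higher, against 7.43% of all genes. UPF2 had the smallest p (0.48 ± 0.16, adjusted p = 0.263, limma, and 0.30 with brighter probe sets). The 17 exosome subunits had a median of 0.24, with 15 positive and 6 (35.3%) at an unadjusted p under 0.05, and EXOSC1 was at 9.91, 9.62 and 9.73 against 9.16, 9.36 and 9.35 (0.47 ± 0.13, adjusted p = 0.199; 0.25 with brighter probe sets). The 15 small nucleolar RNA host genes, many of whose transcripts are decay substrates, had a median of 0.04, and SNHG3 (0.37 ± 0.17, adjusted p = 0.387) had the smallest p. Of the 49 genes of DNA replication and S phase, none passed the adjusted test; 44 had a positive difference, with a median of 0.19, and 12 (24.5%) were higher at an unadjusted p under 0.05. CCNE2, a cyclin of S phase entry, was at 9.14, 8.99 and 8.95 against 7.99, 8.38 and 8.66 (adjusted p = 0.145). The 42 genes of G2 and mitosis had a median of 0.05, with TTK, a spindle checkpoint kinase, at 0.55 ± 0.15 (adjusted p = 0.202).

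None of the 20 chaperone genes passed the adjusted test. Their median, 0.28, was the highest of all lists, with 16 positive. At an unadjusted p under 0.05, 9 (45.0%) were higher, against 7.43% of all genes. DNAJA1, a co-chaperone of HSP70, was at 9.44, 9.45 and 9.46 on the CPSF3 hairpin arrays and at 8.67, 8.87 and 9.09 on the RBFOX2 hairpin arrays (adjusted p = 0.138). Its RBFOX2 hairpin arrays overlapped the control arrays, at 8.67, 8.62 and 9.00. The 57 oxidative phosphorylation genes had a median of 0.07 and the 68 cytosolic ribosomal protein genes one of -0.03. Among the former, UQCRB was at 0.70 ± 0.18 (adjusted p = 0.162, limma), with 3 of its 12 probe sets lower. With brighter probe sets UQCRB was at 0.53, and its lowest value over 17 settings was 0.13. RPL27A was the ribosomal protein gene with the smallest p (0.57 ± 0.14, adjusted p = 0.148), and 6 of its 20 probe sets went the other way; ribosomal protein genes have many processed pseudogenes that share their sequence.

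Genes of the extracellular matrix and adhesion had more members on the lower side at an unadjusted p under 0.05 than any other list. Of 46 members 8 were positive, with a median of -0.15. At an unadjusted p under 0.05, 15 (32.6%) were lower, against 5.42% of all genes. EDIL3 and DPP4 passed the adjusted test. From brighter probe sets the intermediate filament VIM (-0.69 ± 0.11), the matrix glycoprotein SPARC (-0.58 ± 0.12) and fibrillin FBN1 (-0.55 ± 0.11) passed as well, with adjusted p of 0.0115, 0.0342 and 0.0336. VIM was at 10.31, 10.22 and 10.13 against 10.90, 10.99 and 10.74 and SPARC at 9.27, 9.41 and 9.33 against 9.75, 10.08 and 9.93. Both were without overlap. The VIM control arrays, at 11.33, 11.23 and 10.86, lay above the CPSF3 hairpin arrays and overlapped the RBFOX2 hairpin arrays. Those of SPARC, at 10.51, 10.28 and 10.21, lay above both hairpin groups. The proteoglycan gene DCN was at 0.36, but its group means (4.93 and 4.57) lay far below the median probe set signal, and with brighter probe sets it was at -0.04. FN1, COL6A1 and ITGB1 were at -0.29, -0.36 and -0.33. The fibroblast marker ACTA2 was at 8.63, 8.23 and 8.40 against 9.11, 9.13 and 8.87 (adjusted p = 0.133), and other fibroblast marker levels are given above; the part of other cell types in the matrix result was not tested.

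The genes of the ATF4 and unfolded protein response had a median of -0.16, with 10 of 34 positive. At an unadjusted p under 0.05, 9 (26.5%) were lower and 3 (8.82%) higher, against 5.42% and 7.43% of all genes. DDIT4 passed the test. The cytokine GDF15 was at 8.96, 9.33 and 9.31 on the CPSF3 hairpin arrays and at 9.98, 10.47 and 10.01 on the RBFOX2 hairpin arrays (-0.95 ± 0.16, adjusted p = 0.0701), and with brighter probe sets it passed (adjusted p = 0.0099). PSAT1, an enzyme of serine synthesis, was at 9.15, 9.06 and 9.10 against 9.56, 9.83 and 9.86 and passed with brighter probe sets alone (adjusted p = 0.0198). Neither gene's groups overlapped. The 3 members above zero at an unadjusted p under 0.05 were SLC3A2, a subunit of amino acid transporters (0.38; 0.45 with brighter probe sets), EDEM1, which acts in the degradation of misfolded glycoproteins (0.31; 0.28), and CRELD2 (0.32), which was at -0.16 with brighter probe sets.

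TXNIP and ARRDC4, paralogous alpha-arrestins that are induced by glucose through MondoA, were lower with the CPSF3 hairpin on every array but did not pass. ARRDC4 was at 9.44, 9.66 and 9.84 against 10.68, 11.37 and 10.53, a difference of -1.22 ± 0.20 (adjusted p = 0.0625, limma) that passed with brighter probe sets (adjusted p = 0.00863) and without RBFOX2 hairpin replicate 3 (adjusted p = 0.0424). TXNIP was at 9.31, 9.39 and 9.32 against 10.07, 10.97 and 9.70 (-0.91 ± 0.25, adjusted p = 0.204), with all 16 probe sets lower. The RBFOX2 hairpin arrays of TXNIP were widely spread, and its control arrays, at 11.86, 11.75 and 11.24, were above both groups. The whole list of 8 had a median of -0.16.

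Hypoxia-responsive and glycolysis genes had a median of -0.09, with 10 of 38 positive and 8 (21.1%) lower at an unadjusted p under 0.05; P4HA1 (-0.56), LOX (-0.51) and NDRG1 (-0.48) followed STC1, while TPI1 was at 0.55. The 29 neuronal genes had a median of -0.11, with 7 (24.1%) lower and 0 higher at an unadjusted p under 0.05. NRN1, a neurite growth factor, was at 9.24, 9.52 and 9.32 against 9.94, 10.12 and 9.76 and passed with brighter probe sets (adjusted p = 0.0496). Of 20 cholesterol synthesis genes 4 (20%) were lower at an unadjusted p under 0.05, against 5.42% of all genes. INSIG1, the sterol-regulated retention protein, was at 8.93, 9.08 and 9.02 against 9.49, 9.63 and 9.51. Its difference was -0.53 ± 0.12 (adjusted p = 0.121, and 0.0382 with brighter probe sets, limma). The 27 p53 targets had a median of -0.02 and PMAIP1 a difference of -0.52 ± 0.16 (adjusted p = 0.232). The 33 interferon response genes had a median of -0.00, with IFI6 at -0.47 ± 0.14, and the 25 immediate early genes one of -0.10, with EGR2 at -0.40 ± 0.12 (adjusted p = 0.232 for both); EGR2 was at -0.12 with brighter probe sets.

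RBFOX2 hairpin replicate 3, the array nearest to the CPSF3 hairpin group, moved the size of these list values. Without it the median was 0.21 for 3' end processing factors, 0.26 for the core spliceosome, 0.42 for chaperones, 0.23 for S phase genes, -0.20 for matrix genes and -0.19 for ATF4 genes, each in the same direction as with it, while that of cholesterol synthesis genes moved from -0.03 to 0.00. In that fit 10.0% of all genes were higher and 6.64% lower at an unadjusted p under 0.05.

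**Figure D5:**
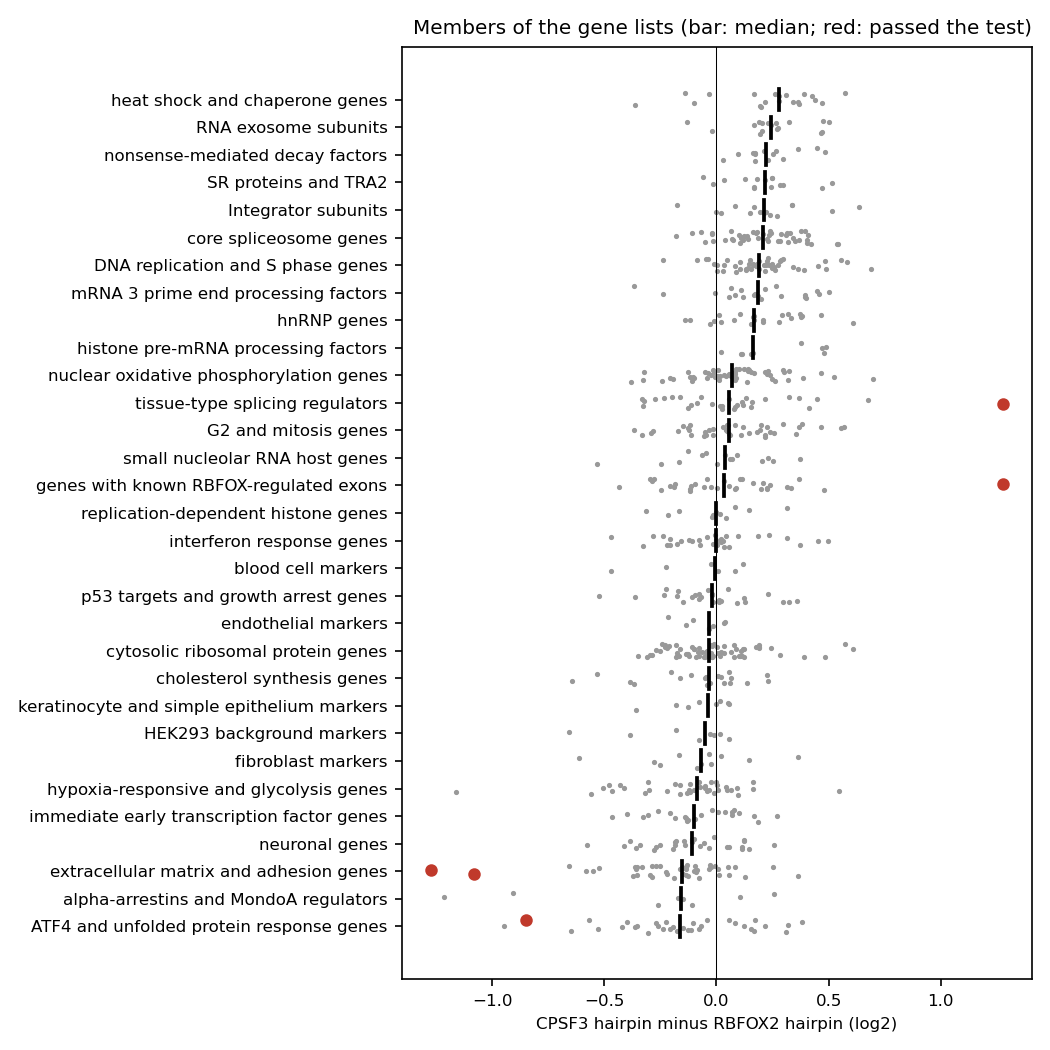
Difference between the hairpins (horizontal axis, log2) for each measured member of the 31 gene lists, 1 point per gene; vertical bars are list medians, and red points passed the test over all genes. Medians run from -0.16 (ATF4 and unfolded protein response genes) to 0.28 (chaperone genes), and the red points are PTBP2, EDIL3, DPP4 and DDIT4.

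Exon use was examined as the relative exon signal, a probe set's value minus its gene's level on the same array. None of 257694 exon probe sets in 15038 genes passed the test (0%; smallest adjusted p = 1, limma), and 4.37% (11265) had an unadjusted p under 0.05. Likewise 0 of 354600 single probe sets (0%) passed without reference to the gene (smallest adjusted p = 0.312), with 29072 (8.2%) at an unadjusted p under 0.05. In the 33 genes with known RBFOX-regulated exons, 67 of 1085 exon probe sets (6.18%) had an unadjusted p under 0.05 and 0 passed.

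Among the exon probe sets with the smallest p, 4 belonged to genes that differed as a whole. A probe set of PTBP2 had a relative signal of -2.58, -3.02 and -3.09 on the CPSF3 hairpin arrays and -1.57, -1.71 and -1.81 on the RBFOX2 hairpin arrays, a difference of -1.20 ± 0.17. Its own signal was 8.26 and 8.10 in the group means, so it stayed near the same level while the rest of the gene was higher. Probe sets of NKIRAS2 (-1.29 ± 0.16; own signal 8.46 and 8.56) and TNMD (1.26 ± 0.15; own signal 7.40 and 7.22) followed the same pattern. An MMP2 probe set (-1.06 ± 0.14) was lower beyond its gene, with an own signal of 6.80 against 8.94.

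In genes that did not pass the main gene test, a probe set of LANCL2 had a relative signal of -0.96, -0.70 and -0.72 on the CPSF3 hairpin arrays and -1.83, -1.83 and -1.92 on the RBFOX2 hairpin arrays (1.07 ± 0.13). The control arrays, at -1.96, -1.57 and -1.36, lay around and above the RBFOX2 hairpin values and below the CPSF3 hairpin values. A probe set of CHRNA2, a nicotinic receptor subunit, was at -0.12, -0.02 and 0.04 against 0.99, 1.04 and 0.86 (-1.0 ± 0.12). The remaining probe sets of this kind were in PITPNC1 (1.13 ± 0.14), BSG (1.03 ± 0.13), TRIM4 (1.02 ± 0.14) and RBP4 (-1.39 ± 0.18). In the RBFOX list, a probe set of the calsyntenin gene CLSTN1 was at 0.18, -0.28 and -0.21 against -1.02, -1.11 and -1.18 (1.00 ± 0.15), and 1 of EPB41L1, a membrane skeleton protein, at 1.62, 1.42 and 1.53 against 2.25, 2.26 and 2.20 (-0.71 ± 0.12). The groups did not overlap for either, and the adjusted p was 1 for each exon probe set named. Where these probe sets lie within their genes was not analysed here.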

How the data were processed

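Total RNA of 9 samples was measured on Affymetrix Human Exon 1.0 ST arrays. The authors deposited log2 signals per probe set, made with RMA in Affymetrix Power Tools on build hg18 by the names that the submitters' processing notes list. The series design text also names the Exon Array Computational Tool; which versions were used was not given in the sources used here. Because RMA gives all arrays the same distribution, a shift common to most genes is lost. Differences of dim probe sets can be compressed by background signal.

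Of the probe sets, 354600 had 1 symbol in the platform annotation, 14898 had several and 1014733 had none; the last 2 kinds were not used. Of 19497 symbols, 16426 were current in RefSeq, 2950 were updated through a synonym and 121 were kept. Promoter windows came from RefSeq (GRCh38.p14) by symbol. Gene levels were medians over at least 3 probe sets, without a filter on dim probe sets. Relative exon signal used probe sets with a 6-array mean at or above 6.97 in genes with at least 5 of them, and 533 probe sets equal to their gene level were left out. Fits used the 6 compared arrays without a block, in R 4.3.3 with limma 3.58.1 (lmFit, eBayes), matrixStats 1.5.0 and data.table at version 1.17.8, 2-sided, adjusted by Benjamini-Hochberg over all features at 0.05. The gene test was tested on simulated data. Single-gene permutation tests were exact.

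The genes named are the targets, genes that passed the test without overlap between groups, the highest and lowest called members or, with none called, the smallest p of each gene list, genes singled out by earlier work on these data, and the 5 exon probe sets each way with the smallest p; others are marked in the text or illustrate a list's count. The groups, members and lists were chosen with earlier results of these data known. Alternatives were 2 filters on dim probe sets, the probe set minimum, the mean as gene level, quantile normalisation, centring, all 9 arrays, a replicate block, trend and robust fitting, array weights, a minimum change of 0.5 and leaving out each array; the brighter filter combined with leaving out arrays was added after seeing the data. Whether replicate numbers pair the arrays could not be told, and the main fit did not use them.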

Additional observations from a re-analysis of the deposited data

How the results depend on the processing

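The number of genes that passed the test depended strongly on the summary of probe sets and on single arrays. All 19 genes kept their direction in each setting that measured them (17 of the 19 with the upper quartile filter). With all 9 arrays, the replicate block, trend and robust fitting or the minimum change, differences are those of the main fit. Direction could not change in those settings. Against 19 in all, 3 higher and 16 lower, the counts were 150, 65 and 85 with brighter probe sets (median), 248, 127 and 121 with the upper quartile (8.36), 199, 82 and 117 with the mean over probe sets, 87, 35 and 52 with trend and robust fitting, 121, 42 and 79 with array weights, and 0 in each direction with a minimum change of 0.5. With at least 1 probe set per gene, quantile normalisation, centring or all 9 arrays the total was 14, 21, 17 and 18. Leaving out 1 array gave 0 to 17 in all, 0 to 7 higher and 0 to 10 lower; with brighter probe sets it gave 19 to 496, 5 to 348 and 14 to 148. In that last series the totals, higher and lower were 25, 5 and 20 without CPSF3 hairpin replicate 1, 58, 24 and 34 without its replicate 2, 56, 28 and 28 without its replicate 3, and 128, 35 and 93, 19, 5 and 14, and 496, 348 and 148 without RBFOX2 hairpin replicates 1, 2 and 3. With the replicate number as a block, 7 passed, 2 higher and 5 lower. Deviations of same-numbered arrays correlated at 0.02, 0.03 and 0.20, and those of differently numbered arrays at -0.21 to 0.18. The value of 0.18 was between CPSF3 hairpin replicate 2 and RBFOX2 hairpin replicate 1. Whether the numbers pair the arrays cannot be told from these values. The targets passed under none of these settings, with CPSF3 at -0.50 to -0.25 and RBFOX2 at 0.27 to 0.43. Exon and single probe sets gave 0 calls in each setting run. CD14 reversed to 0.0112 with brighter probe sets and 0.0064 with the mean over probe sets, and TIE1 to 0.14 with the upper quartile; the cause was not tested. Of the list members named only beside a list's count, CRELD2 and DCN also changed sign with brighter probe sets, to -0.16 and -0.04. Medians of the 3' end, Integrator, spliceosome, decay, S phase, chaperone, matrix and ATF4 lists kept their direction in all 17 settings. These 17 include the settings named above in which direction could not change. Signal over background limits the dim genes, such as TNMD and TSPAN2.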
